A study of Mus musculus with 9 samples.

Results

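Srebf2, Fdps, Osbp2 and Apoe are 4 genes of sterol regulation and transport, described here in the brain of mice lacking carbonic anhydrase IX (CAIX, the product of Car9, a membrane enzyme that hydrates carbon dioxide at the cell surface). Their probes were found through the NCBI mouse gene number that bead array identifiers of one format carry, which gave 4 of 8127 genes named on the array and 5 of the 46116 probes analysed, a pair for Srebf2 and 1 for each of the others. All 5 were above background on all 9 arrays and were among the 16375 probes compared. The genes were chosen by the difference of these probes between knockout and wild type, so that difference is given for them as a description and without a test.

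RNA came from whole tissue labelled as brain, from mice on a C57BL/6 background aged 8 months, 5 of them wild type and 4 CAIX knockout. The series is titled for neurological defects of the knockout. The region of the brain, the sex of the animals and the construction of the knockout allele are not given in the labels. Groups follow the sample titles; the genotype characteristic names another group for 6 of the 9 samples, and the deposited processed values place 4 arrays under other samples.

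Animal cells make cholesterol from acetyl-CoA through mevalonate and farnesyl diphosphate, and the brain makes its own because plasma lipoproteins hardly cross the blood-brain barrier. When sterols in the endoplasmic reticulum run low, SCAP carries the membrane-bound factor SREBP-2 to the Golgi, where proteases release its active part, which turns on genes of cholesterol synthesis and uptake. Within the brain much of the cholesterol is passed between cells on apolipoprotein E particles, made mainly by astrocytes, and a large share of it lies in myelin.

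The genes stand at different steps of this system. Srebf2 (gene number 20788, chromosome 15) encodes SREBP-2. Fdps (110196, chromosome 3) encodes farnesyl diphosphate synthase, the enzyme whose product feeds cholesterol as well as ubiquinone, dolichol and protein prenylation, and it is a known SREBP-2 target. Osbp2 (74309, chromosome 11) encodes a member of the oxysterol-binding protein family, which bind sterols and phosphoinositides at contacts between membranes. Apoe (11816, chromosome 7) encodes apolipoprotein E, the main lipid carrier protein of the brain.

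Promoters are shown because SREBP-2 acts through a short element near the start of its targets, so that the letters around each start are the natural companion to the values. RefSeq promoter sequences of build GRCm38.p6 (250 bases before to 50 after a start) were matched for 3 of the 4 genes, with 1 start for Srebf2 and 3 each for Osbp2 and Apoe. Each is written 5′ to 3′ on the strand of the gene. Capitals mark the sterol regulatory element core TCACNCCA, the CCAAT box or the E-box CACGTG, each searched on both strands, so a CCAAT on the other strand reads as its reverse complement.
Srebf2, chr15:82147019-82147318, plus strand: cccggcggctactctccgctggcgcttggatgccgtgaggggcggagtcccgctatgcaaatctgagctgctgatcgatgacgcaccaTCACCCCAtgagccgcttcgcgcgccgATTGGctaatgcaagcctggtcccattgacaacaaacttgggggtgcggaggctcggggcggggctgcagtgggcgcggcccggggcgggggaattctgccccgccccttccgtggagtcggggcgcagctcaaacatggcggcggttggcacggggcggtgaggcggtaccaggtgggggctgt
Osbp2, first start, chr11:3863854-3864153, minus strand: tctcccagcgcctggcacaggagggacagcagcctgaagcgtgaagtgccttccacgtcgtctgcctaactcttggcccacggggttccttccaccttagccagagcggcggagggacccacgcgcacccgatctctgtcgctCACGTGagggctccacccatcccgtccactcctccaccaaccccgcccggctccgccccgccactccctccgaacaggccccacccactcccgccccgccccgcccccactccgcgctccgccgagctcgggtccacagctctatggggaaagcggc
Apoe, first start, chr7:19699139-19699438, minus strand: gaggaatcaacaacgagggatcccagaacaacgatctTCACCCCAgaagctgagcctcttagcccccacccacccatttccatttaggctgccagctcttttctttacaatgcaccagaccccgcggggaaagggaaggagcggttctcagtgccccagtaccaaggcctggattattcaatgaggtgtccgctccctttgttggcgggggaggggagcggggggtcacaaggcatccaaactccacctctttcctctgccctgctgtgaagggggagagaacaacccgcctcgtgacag

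The Srebf2 window held TCACCCCA with its first base 162 bases before the start and a CCAAT box on the opposite strand 135 bases before it. It also held 5 copies of the GC box GGGCGG, left in lower case, and 68.7% of its bases were G or C. The Apoe window held the same 8 letters, TCACCCCA, 213 bases before the start, in a sequence of 57.7% G and C without a CCAAT or GC box. In the Osbp2 window the E-box stood 107 bases before the start together with 5 GC boxes, at 70.3% G and C. The sterol element, CCAAT box and E-box overlapped no other match, while the 3 GC boxes nearest the first Osbp2 start shared their end bases. Of all 32851 promoters of that length 4.36% held TCACNCCA, 37.4% CCAAT, 35.7% GGGCGG and 7.15% CACGTG. Among 15 genes of cholesterol synthesis with a promoter, 2 held TCACNCCA (Hmgcs1 and Msmo1), while 14 held CCAAT and 14 held GGGCGG. A match is a stretch of letters and was not tested as a binding site.

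Values below are log2 of the background-corrected and quantile-normalized signal, and a difference is the knockout mean minus the wild-type mean on that scale. Each group is named by its titles and numbered as in them. Since probes differ in how they hybridise, each probe is compared only with itself across arrays.

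The Srebf2 probe scl020788.3_30-S was lower on most knockout arrays. It read 9.29, 9.29, 9.36, 8.95 and 9.24 on wild type 1 to 5, and 9.17, 8.77, 8.80 and 8.68 on knockout 1 to 4. The groups overlapped: knockout 2, 3 and 4 lay below every wild-type array, whereas knockout 1 lay above wild type 4. Wild-type arrays averaged 9.23 ± 0.16 (SD, n = 5) and knockout arrays 8.86 ± 0.21 (SD, n = 4). The difference was -0.37 (SE 0.113), a knockout signal 22.7% lower, and 3.35% of the kept probes had a difference of larger size. Before normalization the signals ran from 698.2 to 1008.0 units.

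The second Srebf2 probe, scl0020788.1_174-S, had nearly equal means in both groups. It read 7.60, 7.49, 7.27, 7.47 and 7.44 on wild type 1 to 5 and 7.37, 7.40, 7.62 and 7.48 on knockout 1 to 4. The highest value was that of knockout 3 and the lowest that of wild type 3, so the groups overlapped fully. The means were 7.45 ± 0.12 (SD, n = 5) and 7.46 ± 0.11 (SD, n = 4), with a difference of 0.011 (SE 0.0751), smaller in size than in 88.4% of the kept probes. Which transcripts each probe detects is not given in the sources used here, so the pair is reported as discordant for Srebf2.

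Fdps, the enzyme gene, differed less. Its probe scl0110196.3_64-S read 10.41, 10.42, 10.21, 10.13 and 10.34 on wild type 1 to 5 and 10.22, 10.13, 9.79 and 10.26 on knockout 1 to 4. Knockout 3 stood lowest of all 9 arrays, knockout 2 was just below wild type 4, and knockout 1 and 4 lay inside the wild-type range. The means were 10.30 ± 0.13 (SD, n = 5) and 10.10 ± 0.22 (SD, n = 4), a difference of -0.20 (SE 0.104) or 13% lower, and 14.0% of the kept probes differed more. Without knockout 3 the difference was -0.097. On the signals before normalization, knockout 4 had the highest Fdps reading of all, 1698.1 against 1128.9 on knockout 3, although the median signal of that array was the lowest of the 9.

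Osbp2, the sterol carrier gene, was the one whose groups stood apart. Its probe scl074309.1_115-S read 9.55, 9.54, 9.56, 9.56 and 9.48 on wild type 1 to 5 and 9.27, 9.03, 9.22 and 9.26 on knockout 1 to 4. All knockout arrays lay below all wild-type arrays, as they did for 1.78% of the 16375 probes. The means were 9.54 ± 0.033 (SD, n = 5) and 9.19 ± 0.11 (SD, n = 4). The difference was -0.34 (SE 0.0539), 21.1% lower, and 4.08% of the kept probes differed more. The wild-type arrays agreed closely, with 4 of the 5 between 9.54 and 9.56, and 34.7% of the kept probes had a smaller spread within groups than the 0.0776 of Osbp2. The signals ran from 786.9 to 1116.6 units.

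Apoe, the lipid carrier gene, had the smallest difference of the 4 genes read through their first probes. Its probe scl011816.1_11-S read 12.05, 11.96, 11.85, 11.89 and 12.13 on wild type 1 to 5 and 12.05, 11.96, 11.85 and 11.54 on knockout 1 to 4. Knockout 1, 2 and 3 lay within the wild-type range and knockout 4 below it. The means were 11.98 ± 0.11 (SD, n = 5) and 11.85 ± 0.22 (SD, n = 4), a difference of -0.12 (SE 0.103) or 8.29% lower, and 26.7% of the kept probes differed more. The difference rested largely on knockout 4, the lowest array. The signals ran from 3689.7 to 4817.1 units.

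**Figure D1:**
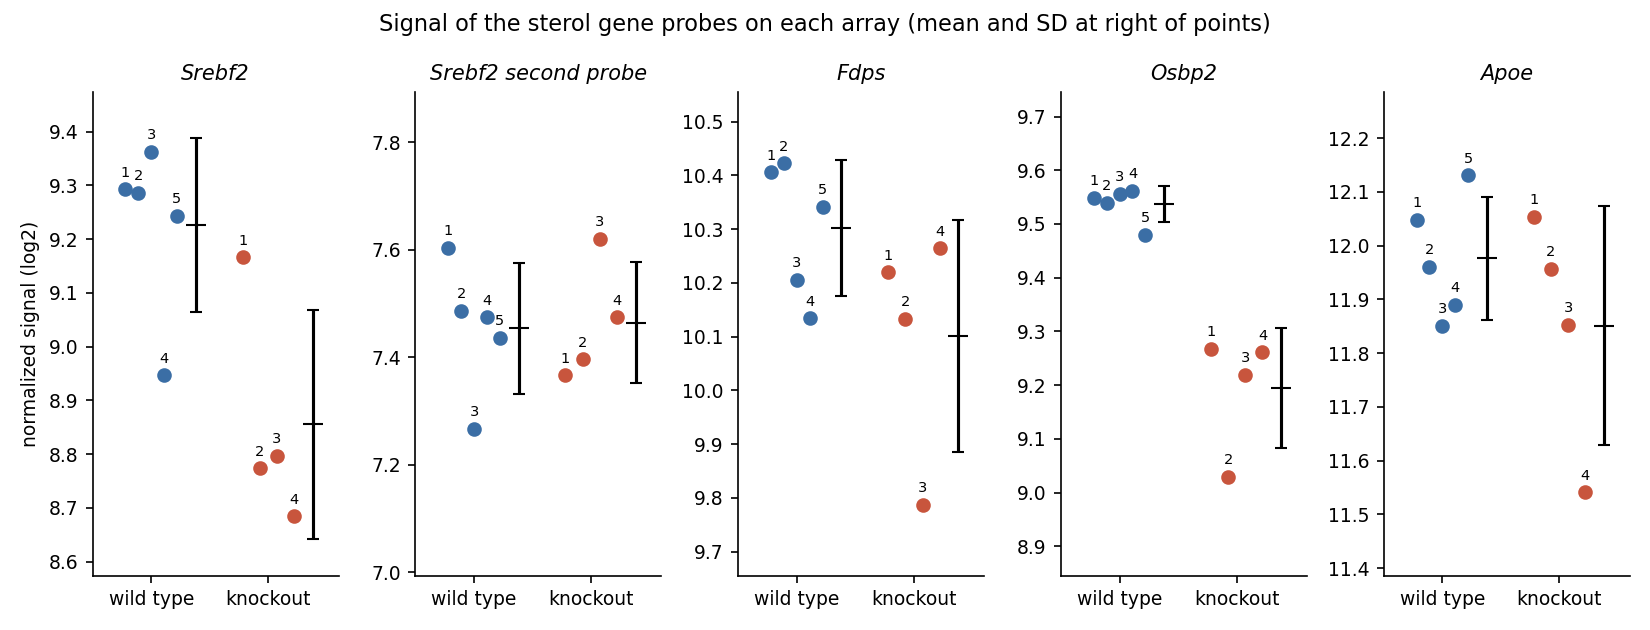
Normalized signal (log2) of each of the 5 probes on every array, in panels by probe, with wild type in blue, knockout in red, replicate numbers above the points and the mean with SD as a black bar. The Osbp2 groups do not overlap, 3 of 4 knockout arrays lie below the wild-type range of the first Srebf2 probe, and the second Srebf2 probe overlaps fully; each panel has its own level and all span the same height.

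The median size of a difference over all kept probes was 0.0597, and 50.2% of them had the lower mean in the knockout. Over all 16375 probes 4 passed an adjusted p of 0.05 by title (limma with Benjamini-Hochberg adjustment), which is 0.0244%, with 3 higher (0.0183%) and 1 lower (0.00611%). Without knockout 1 the count was 48, with 30 higher and 18 lower. As a check of the titles, a probe named NeoR-S, for a resistance gene common in targeting constructs, read 9.90 to 10.56 on the 4 knockout arrays and 6.78 to 6.82 on the 5 wild-type arrays. No probe was matched to Car9. The correlation between arrays was 0.975 to 0.994, and knockout 4 stood apart with a median signal of 133.2 against 167 to 209.8 on the others. Without knockout 4 the differences were -0.31 for Srebf2, -0.26 for Fdps, -0.36 for Osbp2 and -0.021 for Apoe.

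The differences moved with the label that was followed. The NeoR-S signal split the arrays as the titles did, and as none of the other readings below did. With the genotype characteristic in place of the title the differences were 0.21 for Srebf2, 0.023 for Fdps, 0.15 for Osbp2 and 0.11 for Apoe. With titles read through the table of processed values they were -0.052, -0.010, -0.090 and 0.16. The characteristic taken through the same table, a reading added after seeing the data, gave -0.11, -0.17, -0.11 and -0.17. The signal of Xist, the RNA of the inactive X chromosome, split the animals: it was high on 3 of them, knockout 1 with wild type 1 and 2, and low on the other 6. Among the low arrays (3 against 3) the differences were -0.433 for Srebf2, -0.166 for Fdps, -0.363 for Osbp2 and -0.174 for Apoe. Among the high arrays (2 wild type, 1 knockout) they were -0.123, -0.195, -0.276 and 0.0502.

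Whether the 4 genes varied together was read from deviations from the group mean, which the choice of the genes did not use. In all correlations Srebf2 stood for its first probe, and the discordant second probe was left out. None of the 6 pairs passed. The highest correlation was that of Srebf2 with Apoe, at r = 0.549 over the 9 arrays (rho = 0.4; exact permutation within groups, two-sided, p = 0.188; adjusted over the 6 pairs 0.985), and 12.6% of the kept probes followed Srebf2 more closely. Srebf2 and its known target gene Fdps correlated at r = 0.332 (rho = 0.217, exact p = 0.436, adjusted 0.985), and 26.7% of the kept probes followed Srebf2 more closely. Srebf2 with Osbp2 gave r = 0.188 (rho = 0.0833, exact p = 0.672, adjusted 0.993).

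Osbp2 with Apoe gave r = -0.389 (rho = -0.233, exact p = 0.493, adjusted 0.985), which was -0.778 without knockout 1, and 0.102 and 0.4 with the characteristic and with titles through the processed table. Fdps gave an r near 0 with Osbp2 (r = -0.00261, rho = 0.1, exact p = 0.993, adjusted 0.993) and with Apoe (r = 0.0717, rho = 0.0, exact p = 0.885, adjusted 0.993). The r with Osbp2 depended on the normalization: median scaling gave -0.795 (exact p adjusted over the 6 pairs 0.252). Without the 2 arrays farthest from the median of the first gene, r became 0.777 for Srebf2 with Fdps, 0.144 for Srebf2 with Osbp2 and 0.453 for Srebf2 with Apoe. It became 0.208 for Fdps with Osbp2, 0.168 for Fdps with Apoe and -0.382 for Osbp2 with Apoe. Without knockout 4 alone, Srebf2 with Fdps gave 0.598 and Fdps with Apoe 0.74 (exact p adjusted over the 6 pairs 0.678 and 0.342).

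Across all 9 arrays, with the group difference left in, r was 0.74 for Srebf2 with Osbp2, 0.623 for Srebf2 with Apoe, 0.597 for Srebf2 with Fdps, 0.512 for Fdps with Osbp2, 0.267 for Fdps with Apoe and 0.222 for Osbp2 with Apoe. These values hold the shared step between groups for which the genes were picked, and are a description.

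**Figure D2:**
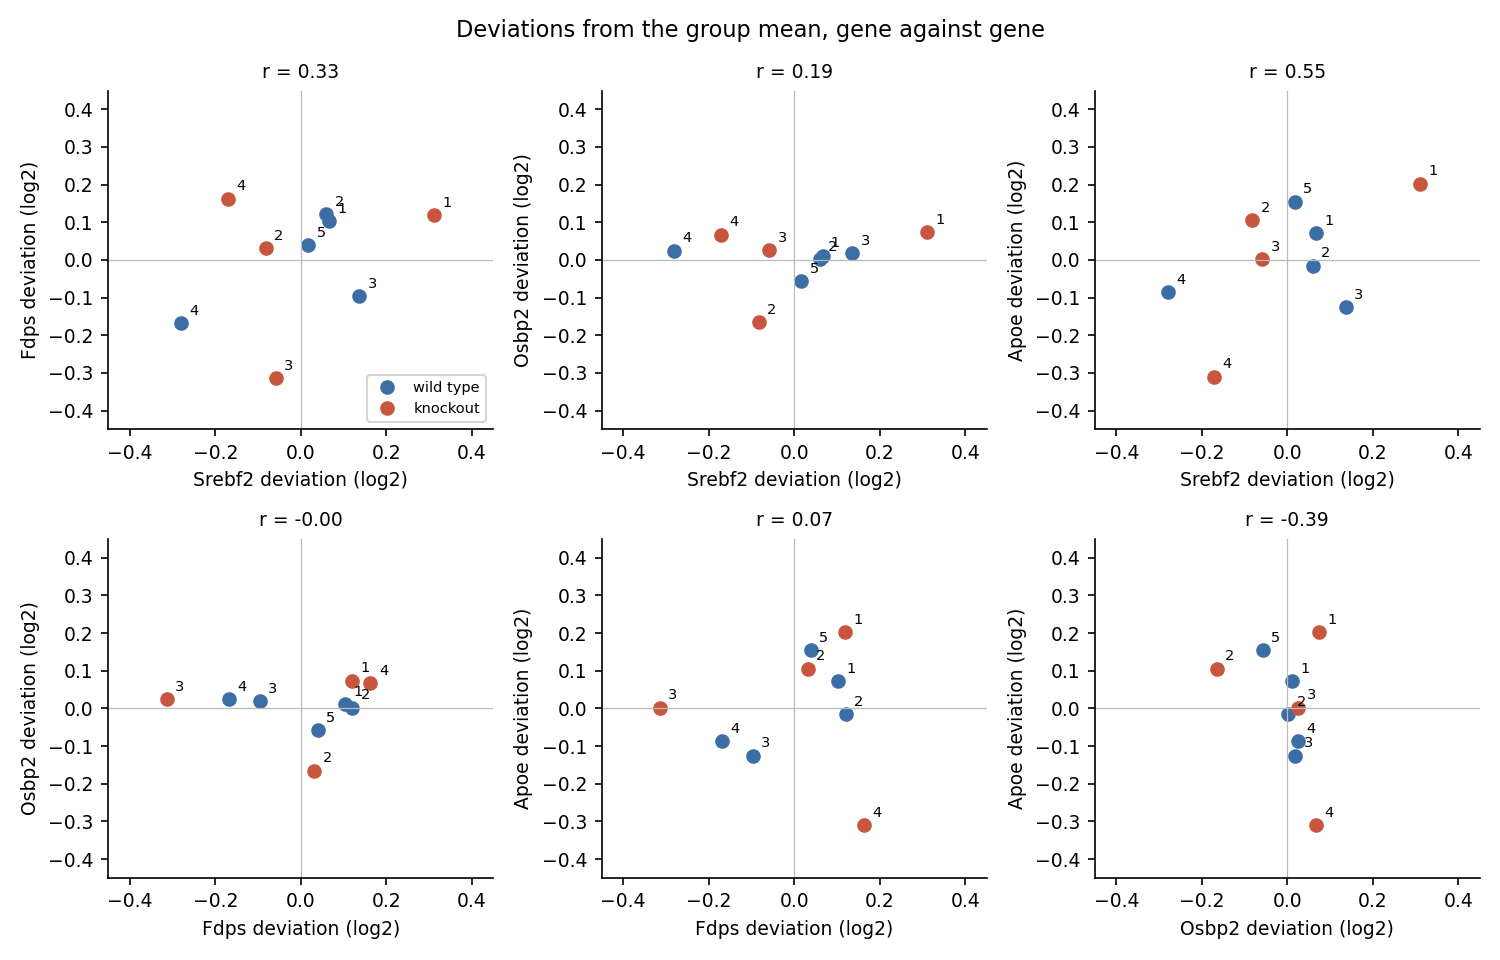
Deviation of each array from its group mean (log2) for the 6 pairs of genes, wild type in blue and knockout in red, with replicate numbers and r in each title. The points of Fdps against Osbp2 form no line (r = -0.00261), and the highest r is 0.549 for Srebf2 with Apoe.

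The named probes that followed each gene most closely were other genes than its partners. For Srebf2 they were Trim27 (r = 0.969 within groups over 9 arrays), Emcn (0.938), Vps18 (0.936), Mrpl19 (0.929) and Slc4a2 (0.926). For Fdps they were Iscu (0.961), Usp39 (0.952), Commd1 (0.948), Ccdc137 (0.930) and Prdx2 (0.929). For Osbp2 they were Fjx1 (0.962), Fbxo16 (0.939), Galnt18 (0.905), Septin5 (0.889) and A130010J15Rik (0.888). For Apoe they were Gm4884 (0.954), Col23a1 (0.939), Armcx2 (0.935), Txlnb (0.934) and AU040320 (0.930). An r above 0.9 was reached by 56 kept probes with Srebf2, 44 with Fdps, 53 with Apoe and 6 with Osbp2. Across all 9 arrays, with the group difference left in, r of the named genes varied more. It ran from 0.221 (Mrpl19) to 0.971 (Vps18) for Srebf2 and from 0.379 (Iscu) to 0.943 (Commd1) for Fdps. For Osbp2 it ran from -0.421 (A130010J15Rik) to 0.923 (Fjx1), and for Apoe from 0.364 (Txlnb) to 0.939 (AU040320).

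The first Srebf2 probe moved along the main axis of variation between arrays, a relation looked at after the values were seen. For the second probe no correlation with this axis was computed. The first principal component held 30.3% of the variance of the kept probes. On it the arrays wild type 1, 2 and 3 and knockout 1 lay between -12.15 and -7.87, wild type 5 at -2.56, wild type 4 at 3.90, knockout 2 and 3 at 5.41 and 8.73, and knockout 4 far out at 26.13. Within groups Srebf2 fell along it, at r = -0.866 (rho = -0.85, exact permutation p = 0.00417, adjusted 0.0334 over 8 relations), and at r = -0.927 without knockout 3 and 4. A correlation of larger size was found for 3.72% of the kept probes. Apoe gave r = -0.731 (exact p = 0.091, adjusted 0.364), which became -0.171 without knockout 3 and 4. For Fdps r was -0.129 (exact p = 0.77) and for Osbp2 0.068 (exact p = 0.844). With the axis as a covariate the differences between knockout and wild type were -0.149 for Srebf2, -0.171 for Fdps, -0.350 for Osbp2 and 0.046 for Apoe. Of the arrays at the low end of the axis, wild type 1 and 2 and knockout 1 were those of high Xist signal. Within groups Srebf2 gave r of 0.663 with Xist, and -0.785 and -0.795 with the sex-linked genes Eif2s3y and Kdm5d. The part of sex in the relation of Srebf2 with the axis was not tested.

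**Figure D3:**
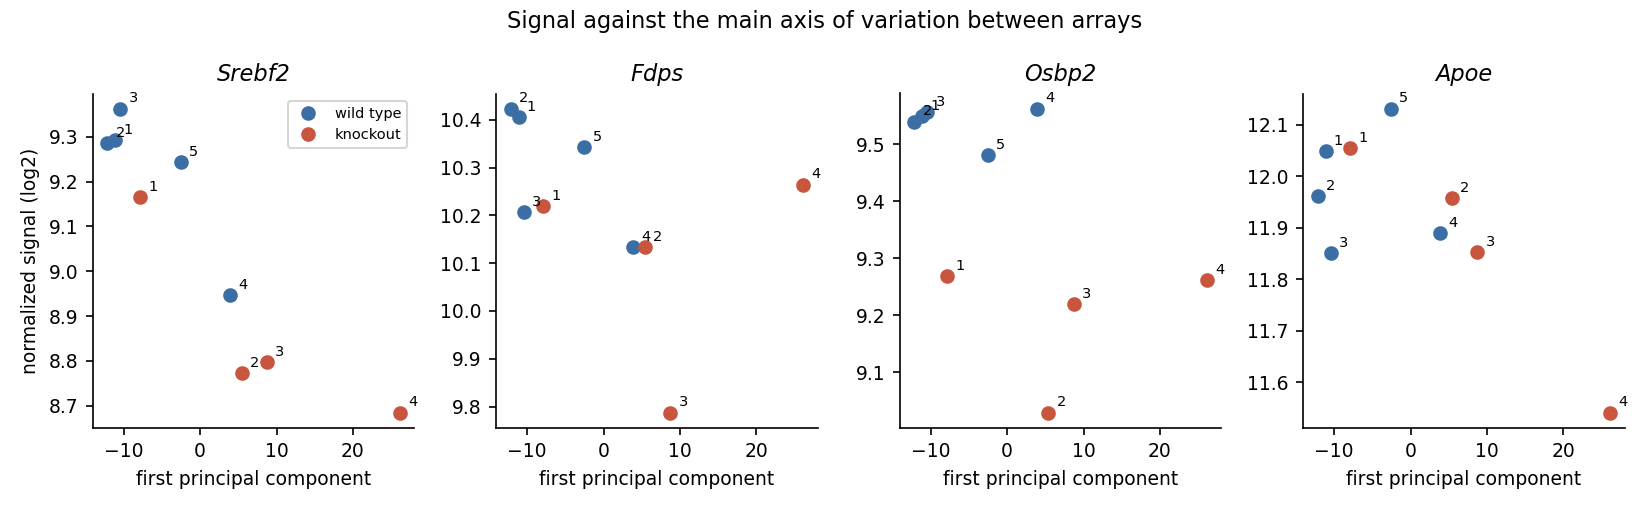
Normalized signal (log2) of the 4 genes against the position of each array on the first principal component (arbitrary units), wild type in blue, knockout in red, replicate numbers beside the points. The first Srebf2 probe is lower on arrays farther right (within-group r = -0.866), and the knockout points of Osbp2 lie below all of its wild-type points.

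Cell markers were read on the same arrays because Apoe is rich in astrocytes and cholesterol in myelin. In bulk tissue, fewer cells of a type and less RNA per cell cannot be told apart. None of the measured markers passed the test: 0 of 4 for astrocytes, 0 of 6 for oligodendrocytes and myelin, 0 of 6 for neurons, 0 of 4 for microglia, 0 of 2 for endothelium, 0 of 2 for meninges, 0 of 1 for choroid plexus and 0 of 3 for blood. Over all kept probes 0.0244% passed, so a count of 0 in lists this short says little about the markers. All 6 oligodendrocyte and myelin markers had a lower mean in the knockout (median difference -0.355), as had all 4 astrocyte markers (-0.143) and 5 of 6 neuron markers (-0.2). So had 2 of 4 microglia, 1 of 2 endothelial, 0 of 2 meningeal, 1 of 1 choroid plexus and 1 of 3 blood markers. Over all kept probes 50.2% had the lower mean in the knockout. The summed log2 level of the myelin list was 55.108 to 58.643 in the wild type and 53.132 to 55.727 in the knockout. For astrocytes it was 32.996 to 33.775 against 32.401 to 33.324, and for neurons 63.042 to 64.242 against 60.816 to 63.482. The defining markers Gfap, Snap25 and Nefl had probes that did not pass the filter. The meningeal list had 5 genes with a probe, of which 2 passed it. The meningeal and choroid plexus markers ranged widely between arrays. The meningeal list (Dcn and Mgp) summed to 16.564 to 18.381 in the wild type and 15.76 to 20.123 in the knockout, highest on knockout 1 and lowest on knockout 4. The choroid plexus marker Clic6 read 7.45 to 8.81 against 7.01 to 9.32, highest on knockout 1 and lowest on knockout 2. The blood list summed to 26.293 to 27.423 against 27.241 to 28.47.

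None of the 32 relations between the 4 genes and the 8 marker lists passed an adjusted p of 0.05, and the closest were with the meningeal and choroid plexus markers. Within groups Apoe followed the meningeal list, that is Dcn and Mgp only, at r = 0.924 (rho = 0.867, exact permutation p = 0.00278, adjusted 0.0555), and at 0.898 without knockout 1 and 2. Srebf2 followed Clic6 at r = 0.898 (rho = 0.917, exact p = 0.00347, adjusted 0.0555), and at 0.691 without knockout 1 and wild type 3. Srebf2 gave r = 0.67 with the meningeal list (exact p = 0.0587, adjusted 0.337), 0.671 with the astrocyte list (exact p = 0.0882, adjusted 0.403) and 0.662 with the myelin list (exact p = 0.0632, adjusted 0.337). Fdps gave -0.769 with the neuron list (exact p = 0.0573, adjusted 0.337) and -0.696 with the blood list (exact p = 0.0538, adjusted 0.337). Apoe, an astrocyte product, gave r = 0.324 with the astrocyte list (exact p = 0.449). Osbp2 gave r of 0.512 with Clic6, the farthest from 0 of its 8 (exact p = 0.311, adjusted 0.861). Several relations moved without the 2 arrays farthest from the median of the list. Osbp2 then gave 0.337 with Clic6, -0.91 with the meningeal list (before, -0.408) and -0.956 with the blood list (before, -0.445). Apoe gave -0.947 with the neuron list (before, 0.328). Fdps gave -0.248 with the blood and -0.745 with the neuron list. Srebf2 gave 0.543 with the meningeal, 0.733 with the astrocyte and 0.608 with the myelin list. The part of cell makeup in the differences of the 4 genes was not tested.

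The rest of the sterol system was read from 7 lists of genes. Beside the 4 described above, 45 of their genes were measured. Of these, 0 passed an adjusted p of 0.05 (limma), against 0.0244% of all kept probes. An unadjusted p under 0.05 was found for 8 (17.8%), against 11.5% of all kept probes. Counts and medians leave the 4 genes out, and counts of lower means stand against the 50.2% over all kept probes, and each list's median against the -0.00035 of all kept probes.

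Of cholesterol synthesis, 9 of 20 listed genes were measured. Of the 8 other than Fdps, 5 had a lower mean in the knockout, and their median difference was -0.03. Cyp51, the lanosterol demethylase, differed by -0.15 (SE 0.116, limma adjusted p = 0.699), and another of its probes by -0.129. Hmgcs1, an early enzyme of the mevalonate pathway, differed by 0.16 (0.619).

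The measured synthesis genes did not track the first Srebf2 probe in a common direction. Within groups, r of Srebf2 with the 8 others ran from -0.731 for Acat2 to 0.527 for Cyp51, with 5 of 8 above 0 and a median of 0.127. For Fdps the highest was 0.859 for Tm7sf2, a sterol reductase, with 5 of 8 above 0 and a median of 0.0212. These are descriptions over the same 9 arrays.

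Of SREBP regulation and sterol uptake, 4 of 16 listed genes were measured. The 3 other than Srebf2 had lower means with a median difference of -0.0261, the smallest adjusted p being 0.859. Mbtps2, the protease that makes the second cut of SREBP, differed by -0.026 (limma, adjusted p = 0.859) and Sec23a, a coat protein of the vesicles that leave the endoplasmic reticulum, by -0.024 (0.925). Probes for Srebf1, Insig1 and Rnf139 did not pass the filter. Beyond farnesyl diphosphate, the isoprenoid branch had 2 of 14 listed genes measured: Nus1, a subunit of the dolichol-making prenyltransferase, differed by -0.10 (0.439) and Icmt, which methylates prenylated proteins, by -0.14 (0.655).

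In the family of Osbp2, the oxysterol-binding and START proteins, 12 of 22 listed genes were measured. Of the 11 other than Osbp2, 5 were lower, with a median of 0.0256. Osbpl9 differed by 0.42 (SE 0.156, limma adjusted p = 0.352) and Osbpl6 by 0.23 (0.339), although another Osbpl6 probe gave 0.0139. Osbpl2 differed by -0.14 (0.386). Stard4, a soluble sterol carrier, differed by 0.24 (0.647), and within groups it ran opposite to the first Srebf2 probe at r = -0.927. That r was the farthest from 0 among the measured genes of the pathway lists other than Srebf2, and it was not tested.

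Around Apoe, 9 of 20 listed genes of lipoproteins and their receptors were measured. Of the 8 other than Apoe, 5 were lower, with a median of -0.0549. Scarb1, a receptor that takes up cholesteryl esters from lipoproteins, read 8.34 ± 0.13 (SD, n = 5) against 7.92 ± 0.28 (SD, n = 4). Its groups did not overlap, which held for 3.68% of all kept probes in either direction, and the difference of -0.42 (SE 0.124) had a limma adjusted p of 0.262. The lipoprotein receptor genes Vldlr and Sorl1 differed by -0.13 (0.466) and -0.16 (0.553), and Apoa2, an apolipoprotein of HDL, by -0.077 (0.716).

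Of sterol efflux, turnover and storage, 6 of 21 listed genes were measured, 2 lower and 4 higher, with a median of 0.0103. Abcg1, a sterol exporter, differed by -0.19 (limma adjusted p = 0.493), Cav1, a cholesterol-binding coat protein of caveolae, by 0.21 (0.355), Soat1, which esterifies cholesterol, by 0.051 (0.662) and Rxrb, a partner of the LXR receptors, by -0.058 (0.922). Of fatty acid synthesis, 7 of 14 were measured, 5 lower and 2 higher, with a median of -0.0623. Elovl6, a fatty acid elongase, differed by 0.27 (SE 0.0656, adjusted p = 0.204) without overlap of the groups, Acaca, which makes malonyl-CoA, by 0.12 (0.297), Acly by -0.062 (0.769) and the desaturase Scd2 by -0.094 (0.791).

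**Figure D4:**
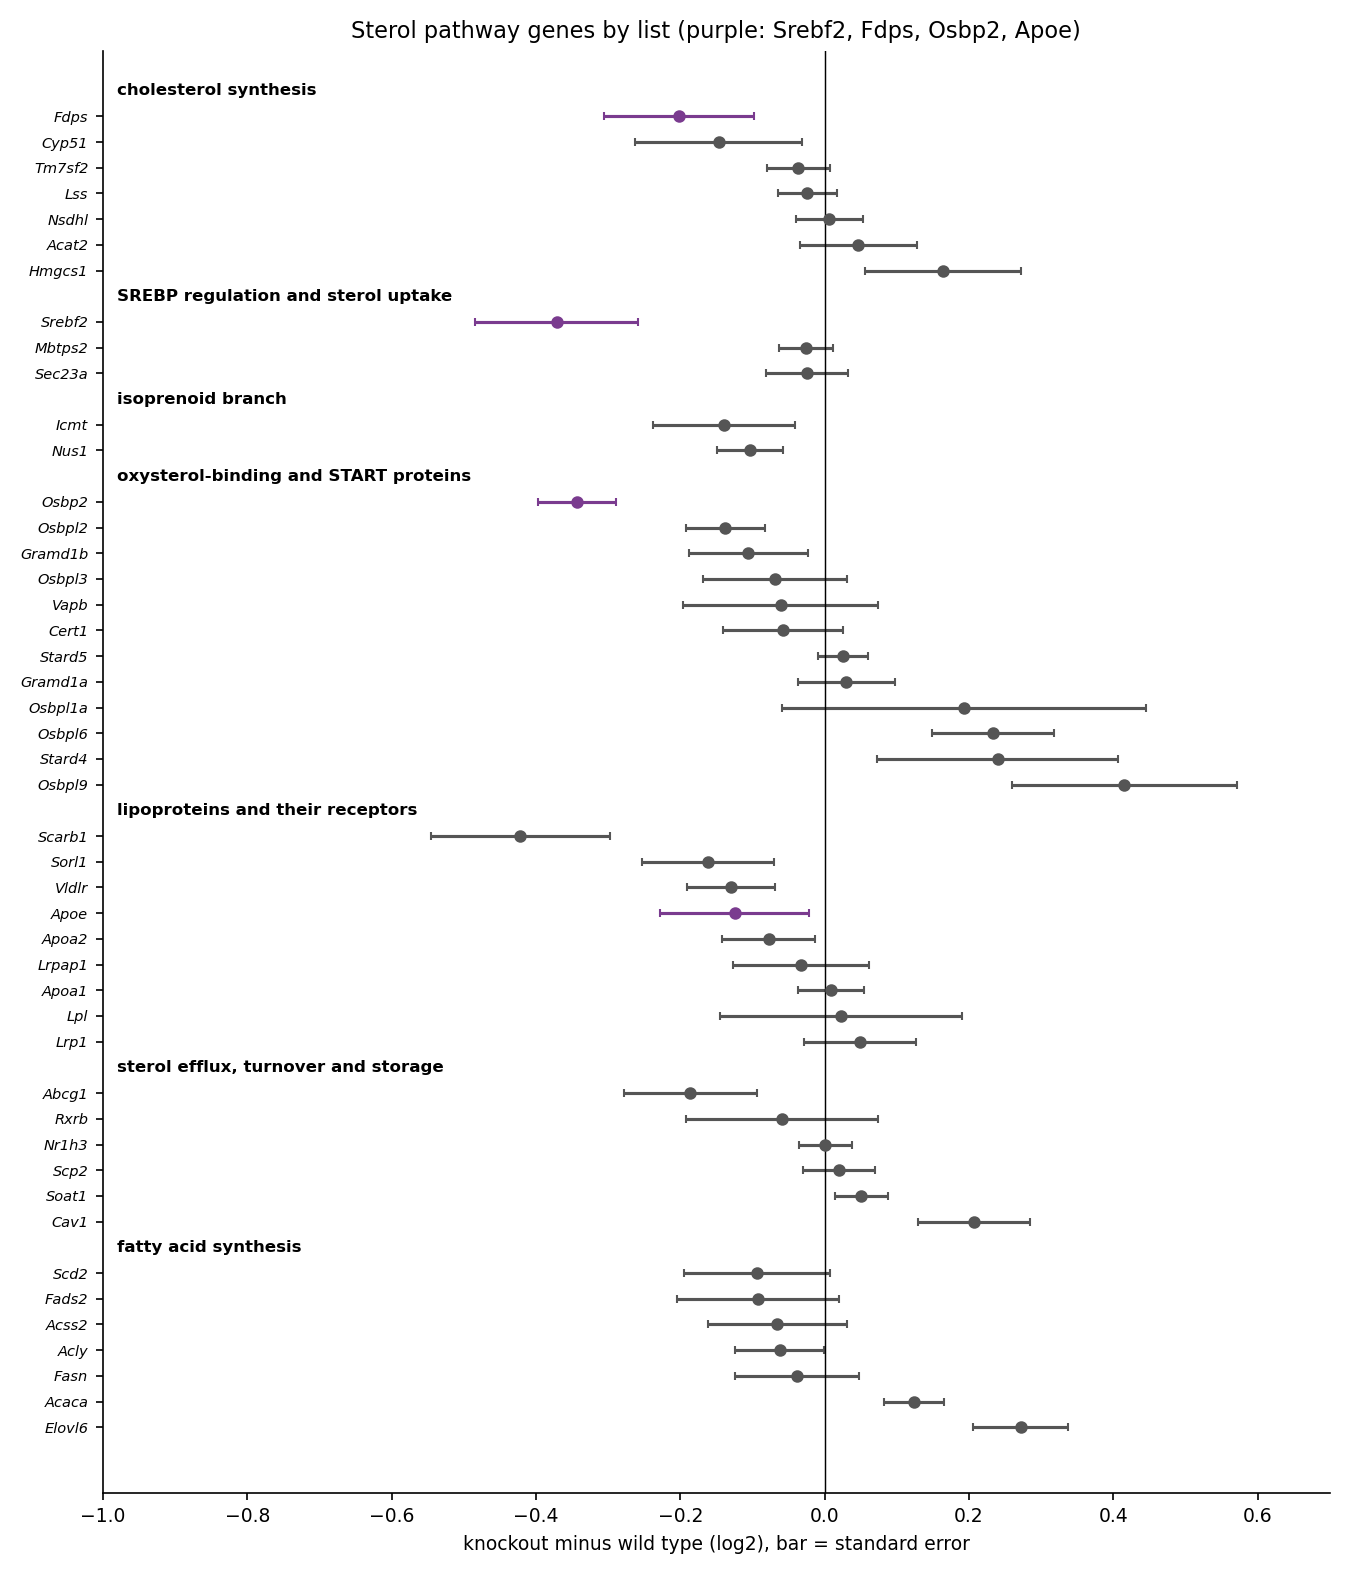
Difference between knockout and wild type (log2, with standard error bars) for measured genes of the 7 lists, the 4 sterol genes described first in purple and the others in grey, a few genes not being drawn. Genes lie on both sides of 0 in 5 of the lists, and none of the genes in grey passed the adjusted threshold.

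**Figure D5:**
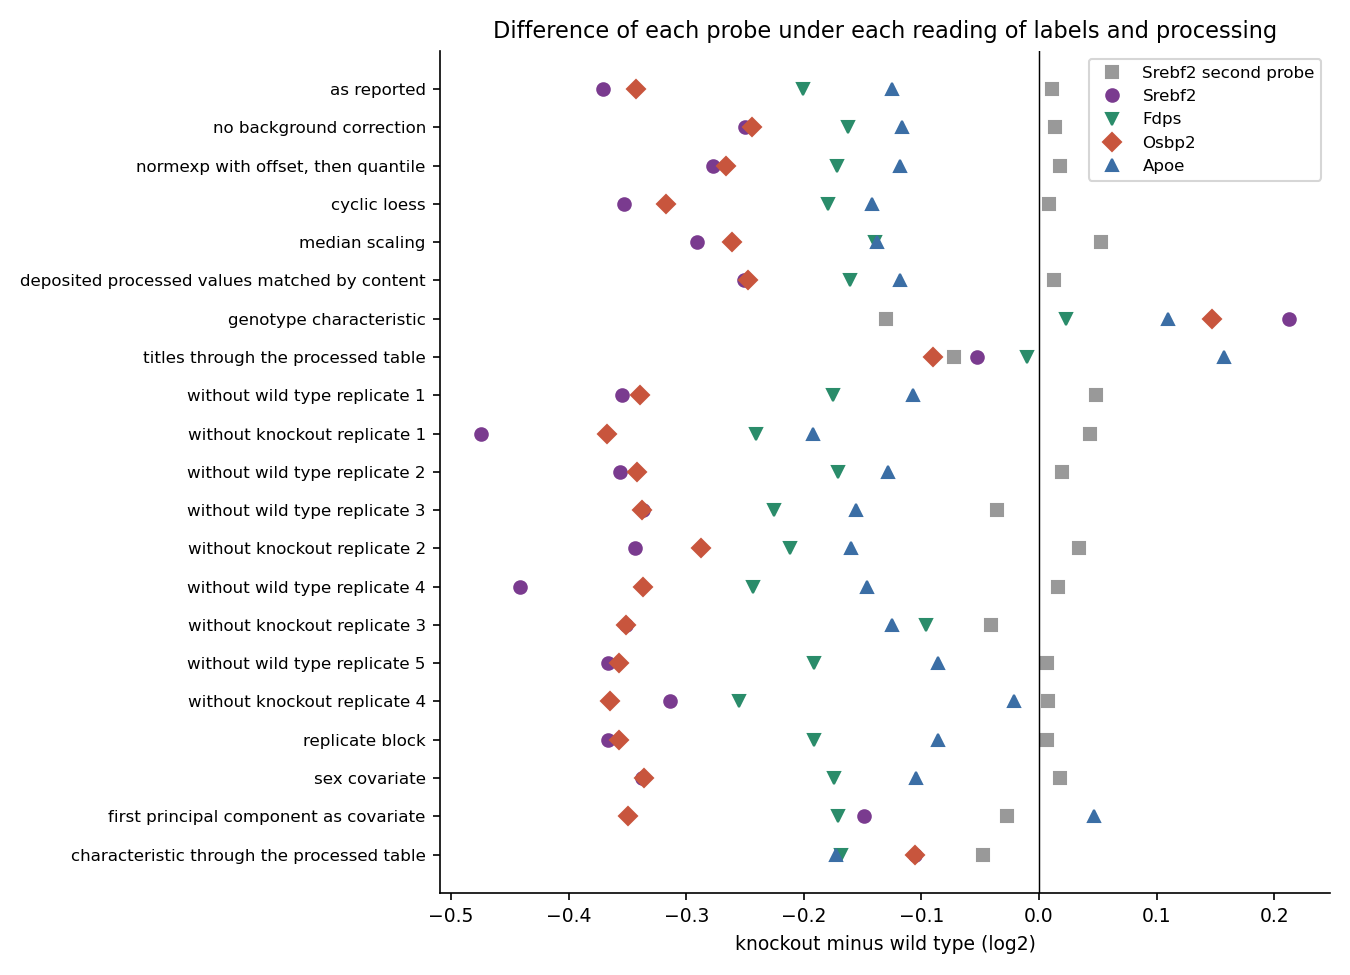
Difference between knockout and wild type (log2, horizontal) of each of the 5 probes under each way of processing or labelling the arrays (vertical), with one marker shape per probe. Osbp2 runs from -0.37 to -0.29 when single arrays are left out, and moves to 0.15 when the genotype characteristic gives the groups.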

How the data were processed

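Total RNA from brain of 8-month-old mice was labelled with biotin and hybridised to bead arrays, per the labels' protocols. For scanner software and normalization, the sources used here give nothing. The authors deposited signals that are linear intensity values without normalization, per the file headers, each with a fraction named detection p-value there. Because that fraction went up with signal (lowest rank correlation 0.992), 1 minus it served as the detection p. The authors also deposited log2 values, which quantile normalization of the signals and log2 recovered to within 0.0051.

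Signals of 46116 probes were background-corrected and quantile-normalized by neqc (limma 3.58.1, R 4.3.3, offset 16). Of 46120 rows, 4 were left out because the deposited processed values do not hold them. The 16375 probes detected on 4 or more of the 9 arrays (detection p below 0.05) were kept. Knockout was compared with wild type by lmFit and eBayes (two-sided), and p-values were adjusted over all kept probes by the Benjamini-Hochberg method. The fit was also tested on simulated data with the means and spreads of these probes, the noise being drawn independently for each probe. Between 14895 and 17325 probes per array were detected. The number of arrays limits the precision, and the design text counts 1 mouse per array.

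Probes were named by the gene number in their identifiers through a RefSeq table of GRCm38.p6, an inference: 81.1% of 10024 numbers were in it against 42.5% to 45.9% of numbers shifted by 1 to 3. A gene with several kept probes was read from the brightest. Correlations used deviations from group means, with an exact permutation of arrays within groups. Text names the 4 genes of smallest p in each list, except some that are not reported here, and the 5 named genes most like each of the 4 sterol genes. The genes and the lists were chosen with earlier results of these data known.

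Alternatives were other background corrections, normalizations, filters, label readings, array weights, sex by Xist signal, the replicate number as a block and single arrays left out. The first principal component as a covariate, the characteristic taken through the processed table and 5 of the 8 marker lists in the correlations were added after seeing the data.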

Additional observations from a re-analysis of the deposited data

Results flagged for a closer look

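Of 54 groups of 4 or 5 arrays examined, 2 held an array far from the rest, and chance flags about 1 in 20. Wild type 4 was the lowest wild-type array for Srebf2, at 8.95 with the nearest at 9.24, a gap of 0.714 of the whole range. Wild type 5 was the lowest for Osbp2, at 9.48 with the nearest at 9.54, a gap of 0.721 of a narrow range.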

How the results depend on the processing

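Filters and array weights were not run for the differences of the 4 genes. In the alternatives that were, Osbp2, Srebf2 and Fdps kept their negative sign except with the genotype characteristic, and Apoe in all but 3. With that characteristic the differences were 0.21 for Srebf2, -0.13 for its second probe, 0.023 for Fdps, 0.15 for Osbp2 and 0.11 for Apoe, and r was 0.532 for Fdps with Osbp2 and 0.102 for Osbp2 with Apoe. With titles through the processed table they were -0.052, -0.072, -0.010, -0.090 and 0.16, with r of 0.521 and 0.4. With the characteristic through that table, Srebf2 gave -0.11, its second probe -0.047 and Osbp2 -0.11. With the first principal component as a covariate Srebf2 gave -0.15, its second probe -0.027 and Apoe 0.046. Osbp2 gave -0.24 without background correction, -0.26 with median scaling and -0.25 with the deposited processed values.

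Probes past the threshold numbered 4, against 0 under each of these 3 label readings, 11 without background correction, 12 with normexp and an offset, 2 with median scaling, 13 with the processed values, 1 with the replicate block, 2 with sex and 2 with the component. They numbered 2 to 48 with single arrays left out, 48 without knockout 1. Of the pathway list genes other than the 4, 0 passed it in every alternative. Same-numbered arrays deviated together at r of 0.101, 0.0885, -0.309 and 0.0113. Arrays of different number were not compared, so whether the numbers pair the samples was not settled. The replicate block gave -0.37 for Srebf2, 0.0067 for its second probe, -0.19 for Fdps, -0.36 for Osbp2 and -0.086 for Apoe.

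Leaving out single arrays gave -0.47 (without knockout 1) to -0.31 for Srebf2, -0.041 to 0.049 for its second probe, -0.26 to -0.097 for Fdps, -0.37 to -0.29 for Osbp2 and -0.19 to -0.021 for Apoe. Correlations ran from 0.0954 to 0.598 for Srebf2 with Fdps, -0.182 to 0.4 with Osbp2 and 0.287 to 0.715 with Apoe, from -0.189 to 0.198 for Fdps with Osbp2, -0.107 to 0.74 with Apoe, and -0.778 to -0.157 for Osbp2 with Apoe. Median scaling gave -0.352 and -0.122 for Srebf2 with Fdps and with Osbp2, and -0.0883 for Fdps with Apoe, which cyclic loess gave as -0.0181. Fdps with Osbp2 was -0.795 with median scaling, 0.1 by Spearman's rho and 0.208 without the 2 farthest arrays.

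List genes reversed mainly with the labels. With the characteristic they were Abcg1 0.13, Acaca -0.034, Apoa2 0.10, Cav1 -0.096, Elovl6 -0.15, Hmgcs1 -0.21, Icmt 0.15, Osbpl2 0.035, Osbpl6 -0.089, Osbpl9 -0.27, Scarb1 0.24, Sec23a 0.11, Soat1 -0.028, Sorl1 0.17, Stard4 -0.13 and Vldlr 0.074. With titles through the processed table they were Apoa2 0.068, Hmgcs1 -0.037, Scarb1 0.046, Scd2 0.030, Sec23a 0.12, Soat1 -0.012, Sorl1 0.14 and Vldlr 0.048. Rxrb gave 0.035 with median scaling, and Scd2 0.0068 with array weights. The cause was not tested. With single arrays left out, the highest without knockout 2 for Rxrb and knockout 4 for the others, Rxrb ran from -0.16 to 0.058, Scd2 from -0.17 to 0.0022 and Sec23a from -0.056 to 0.016.

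The 5 probes were detected on every array. The number of arrays, the handling of background and the conflict of labels limit the readings, although the NeoR-S signal followed the titles.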
